A study of Mus musculus with 6 samples.

Results

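The major histocompatibility complex (MHC) genes of the mouse, whose names start with H2-, were examined in uterine RNA of mice with a conditional deletion of Tcf21 and of their controls. All rows of the deposited gene table with such a name were taken, whatever their biotype, which gave 35 of 26018 genes. They comprise 2 classical class I genes, 20 non-classical class I genes, 3 genes for class II antigen-presenting chains, 5 genes for class II peptide exchange, 4 pseudogenes and H2-Ke6, an older name of the steroid dehydrogenase gene Hsd17b8, which lies in the complex but encodes no MHC molecule. Bulk RNA sequencing was done on the uteri of body-weight-matched, untreated female mice aged 6 weeks. In 3 animals of the genotype Tcf21d/d, called cKO for conditional knockout, floxed copies of the transcription factor gene Tcf21 were deleted, and 3 control animals of the genotype Tcf21f/f kept those copies intact. Each library came from 1 animal. The labels used here give neither the Cre driver nor the strain or MHC haplotype of any animal.

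Classical class I molecules, made of an H2-K or H2-D heavy chain with beta-2-microglobulin, display peptides from inside the cell to CD8+ T cells on nearly all nucleated cells. Non-classical class I genes of the Q, T and M regions encode related chains with narrower expression or specialised ligands. Class II molecules pair an alpha with a beta chain (H2-A and H2-E in the mouse) and display peptides from endosomes to CD4+ T cells, mainly on dendritic cells, macrophages and B cells. The complex is highly polymorphic, and each strain carries a fixed combination of alleles called a haplotype. The reference assembly is that of C57BL/6J, which has haplotype b, and gene counts do not tell alleles apart.

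The libraries held 14584450 to 16579573 reads on genes. Tcf21 was at 26.0, 0 and 0 normalised read counts in cKO replicates 1 to 3, against 341, 152 and 144 in control replicates 1 to 3 (limma adjusted p = 0.0765). With no read, cKO replicates 2 and 3 could still hold up to 2.93 and 3.31 (3 reads each, counting error only). Across all 16314 genes that passed the filter on low reads, 145 (0.889%) were lower and 45 (0.276%) higher in the cKO uteri, together 1.16%, by limma at a Benjamini-Hochberg adjusted p under 0.05. Of 6 uterine markers 5 had reads in every library, and Wnt7a was at 1.86 in cKO replicate 1, 75.6 in control replicate 1 and 0 elsewhere. Together they took 0.00716 to 0.0135% of cKO reads and 0.0127 to 0.0408% of control reads, with the progesterone receptor gene Pgr at 389 to 755 in cKO and 727 to 1996 in control uteri. Markers of other tissues were also present. The 5 skeletal muscle markers took 3.6 to 5.73% of cKO reads and 1.66 to 3.81% of control reads. In control replicate 1 the 6 liver markers took 1.25% of all reads, and in no other library more than 0.00718%. The 6 intestinal epithelium markers took 0.0107% in control replicate 2 and at most 0.0047% elsewhere. Most of this share in every library came from Lgals4, at 358, 650 and 394 in cKO and 422, 954 and 641 in control uteri. Each of the other markers was also highest in control replicate 2, such as Vil1 at 192 against at most 8.53 elsewhere. In whole tissue, fewer cells of a type and less RNA per cell cannot be told apart.

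The promoters of the genes on which the description below turns are shown first, since class I and class II genes are known to be read from different sets of short promoter elements. The RefSeq windows (GRCm38.p6, chromosome 17) run from 250 bases before to 50 bases after the transcription start, 5′ to 3′ on the strand of the gene. They are chr17:34000284-34000583 (minus strand) for H2-K1, chr17:35262844-35263143 (plus) for H2-D1, chr17:35469839-35470138 (plus) for H2-Q10, chr17:35342057-35342356 (plus) for H2-Q2, chr17:34287774-34288073 (minus) for H2-Aa and chr17:34305617-34305916 (plus) for H2-Eb1. Capitals mark the class I enhancer A sequence GGGGATTCCCC, which NF-kappaB factors bind, the interferon consensus sequence GTTTCACTTCT of class I promoters (both as they stand in H2-K1), the cyclic AMP response element core TGACG, the CCAAT sequence, which is the Y box of class II promoters, and the X box CTAGCAACNGATG, which the RFX complex binds, as read from H2-Eb1 with base 9 left free, each searched on both strands.
H2-K1: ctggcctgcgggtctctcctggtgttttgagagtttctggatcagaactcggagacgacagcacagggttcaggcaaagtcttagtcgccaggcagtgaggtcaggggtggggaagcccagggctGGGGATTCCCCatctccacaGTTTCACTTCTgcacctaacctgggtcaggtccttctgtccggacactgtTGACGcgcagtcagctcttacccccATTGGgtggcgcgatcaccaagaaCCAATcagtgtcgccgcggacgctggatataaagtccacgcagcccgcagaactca
H2-D1: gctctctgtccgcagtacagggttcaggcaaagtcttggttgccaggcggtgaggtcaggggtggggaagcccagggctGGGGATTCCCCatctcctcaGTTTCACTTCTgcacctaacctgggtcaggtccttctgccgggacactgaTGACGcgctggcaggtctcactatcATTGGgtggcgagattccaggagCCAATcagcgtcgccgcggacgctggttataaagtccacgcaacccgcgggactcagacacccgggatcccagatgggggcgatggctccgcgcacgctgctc
H2-Q10: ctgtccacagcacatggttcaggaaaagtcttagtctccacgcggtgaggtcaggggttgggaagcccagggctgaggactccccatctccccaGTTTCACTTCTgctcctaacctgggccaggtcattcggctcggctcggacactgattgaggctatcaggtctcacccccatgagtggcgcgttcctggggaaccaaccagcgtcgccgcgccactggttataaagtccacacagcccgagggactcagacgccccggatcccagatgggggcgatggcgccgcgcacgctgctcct
H2-Q2: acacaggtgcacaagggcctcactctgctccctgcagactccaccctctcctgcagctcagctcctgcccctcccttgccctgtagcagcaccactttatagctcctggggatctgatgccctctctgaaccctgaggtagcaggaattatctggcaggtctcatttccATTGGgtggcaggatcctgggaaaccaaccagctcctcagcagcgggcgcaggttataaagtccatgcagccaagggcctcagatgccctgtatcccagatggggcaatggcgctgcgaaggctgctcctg
H2-Aa: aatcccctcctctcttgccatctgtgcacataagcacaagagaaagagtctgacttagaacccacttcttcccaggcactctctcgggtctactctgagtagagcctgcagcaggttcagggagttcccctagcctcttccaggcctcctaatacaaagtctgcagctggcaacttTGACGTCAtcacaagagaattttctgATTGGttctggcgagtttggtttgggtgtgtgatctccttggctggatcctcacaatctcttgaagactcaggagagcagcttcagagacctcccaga
H2-Eb1: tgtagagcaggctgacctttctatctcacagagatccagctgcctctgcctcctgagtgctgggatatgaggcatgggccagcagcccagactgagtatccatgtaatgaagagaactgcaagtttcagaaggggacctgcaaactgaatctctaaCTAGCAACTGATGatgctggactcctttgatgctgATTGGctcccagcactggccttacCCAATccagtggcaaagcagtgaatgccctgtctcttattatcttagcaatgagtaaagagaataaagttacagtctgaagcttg

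Among the 26 of 35 genes with a window in the RefSeq table, enhancer A was found in 3 (H2-K1, H2-D1 and H2-Q6), against 0.0304% of all 32851 windows. The interferon consensus was found in 7 of 26 (H2-K1, H2-D1, H2-Q4, H2-Q6, H2-Q7, H2-Q10 and H2-M3), against 0.0578% of all windows. The CCAAT sequence was in 23 of 26 genes (37.4% of all windows) and TGACG in 9 of 26 (20.8%). Enhancer A and the interferon consensus were read from H2-K1 and the X box from H2-Eb1, so these source genes match by design. Beyond H2-Eb1 no H2 window held the X box letters, which were in 0.00913% of all windows. The exact search leaves out near matches, such as ctagcaacaaatg in H2-Ob. In H2-K1 and H2-D1 enhancer A, the interferon consensus, TGACG and a pair of CCAAT sequences followed each other in the same order. H2-Q10 kept the interferon consensus and held neither enhancer A, TGACG nor CCAAT in these letters, and H2-Q2 held 1 CCAAT alone. The matches do not overlap, except that TGACG on both strands forms 1 palindrome in H2-Aa. A match describes the letters of the reference and not binding in these uteri.

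Of the 35 H2 genes, 25 passed the filter on low reads. None of the 25 was called higher or lower in the cKO uteri by limma (adjusted p from 0.434 to 0.993), where 0.889% of all tested genes were lower and 0.276% higher. None had an unadjusted p under 0.05 by limma, against 13.7% of all tested genes. None was called by edgeR's quasi-likelihood test (0.748% of all genes called in either direction), DESeq2 (5.52%) or limma-voom (0.619%). DESeq2 gave no adjusted p for H2-Q10 and H2-M5, so these 2 could not be called by it. By edgeR 1 of the 25 had an unadjusted p under 0.05, H2-Q10. The log2 fold change was above 0 for 19 of the 25 and below 0 for 6. Its median was 0.28, against 0.0020 over all tested genes. For no tested H2 gene did the 3 cKO values all lie above or all lie below the 3 control values, a separation seen upwards in 9.04% and downwards in 10.5% of all tested genes. The limma 95% confidence interval included 0 for all 25, and its width depended on the gene, as the plot of fold changes shows. A p that misses the threshold does not show that the levels are equal.

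**Figure D1:**
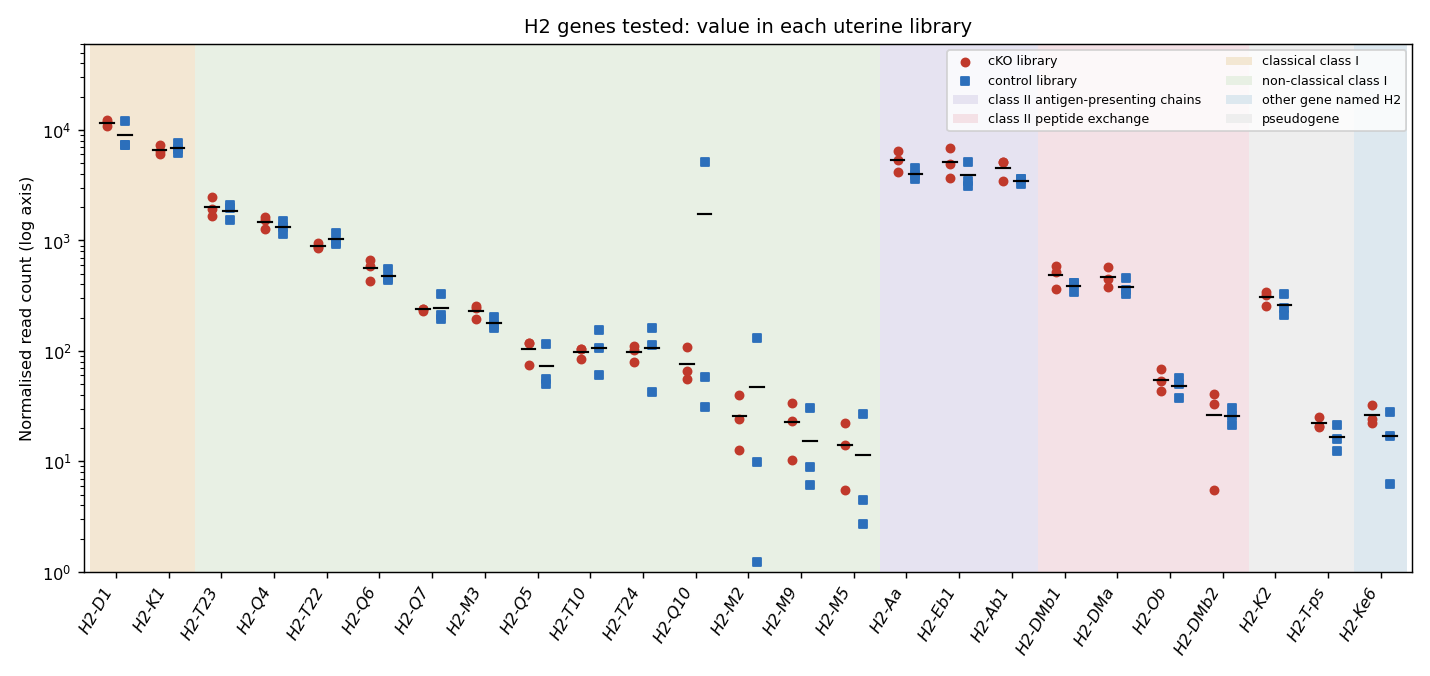
Normalised read count (log axis) of each of the 25 tested H2 genes in the 3 cKO libraries (red circles, left) and the 3 control libraries (blue squares, right), with black bars for group means and shading for gene classes. The values of the groups overlap for every gene, and H2-Q10 and H2-M2 each have 1 control library far above the rest, at 5166 and 131.

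**Figure D2:**
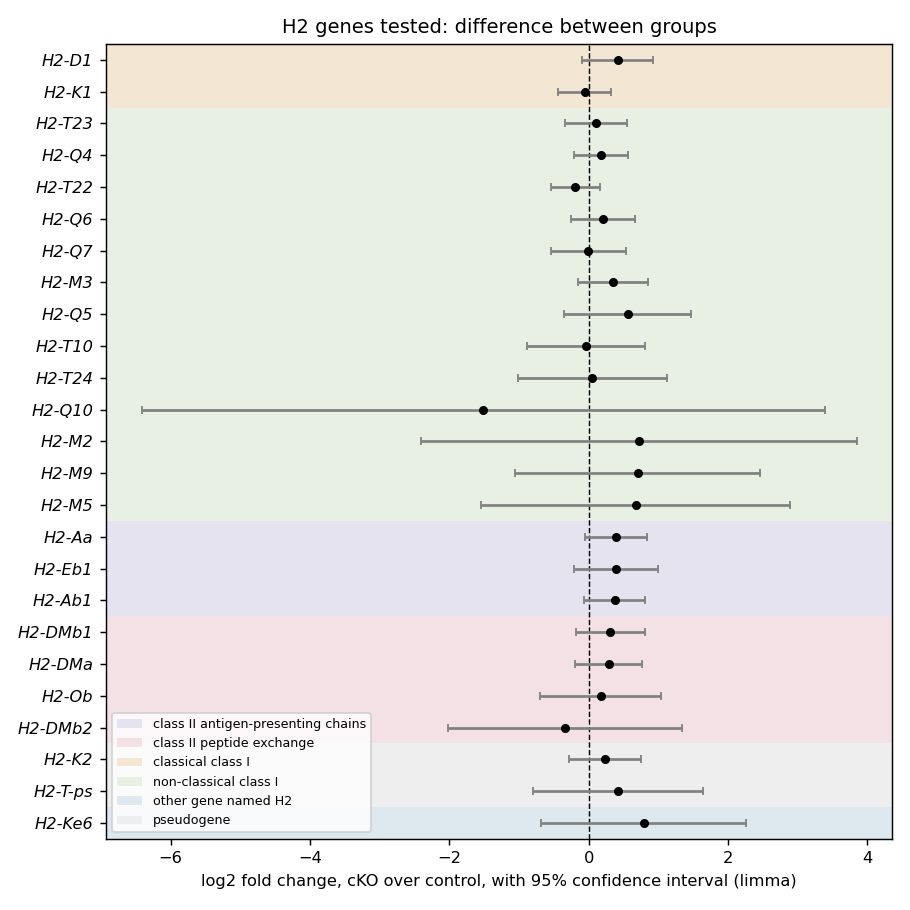
Log2 fold change of the 25 tested H2 genes, cKO over control, with the limma 95% confidence interval (3 libraries per group). All intervals include 0, and the interval of H2-K1, from -0.44 to 0.32, is narrow beside that of H2-Q10, from -6.42 to 3.39.

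The classical class I genes were among the most abundant members in every library. H2-K1 (ENSMUSG00000061232, minus strand, 33996017 to 34000333 on chromosome 17, GRCm38) was at 6121, 7277 and 6421 normalised read counts in cKO uteri, against 6778, 7658 and 6220 in control uteri. Its group means were 6606 ± 600 and 6885 ± 725 (SD, n = 3 each), and the log2 fold change was -0.058 ± 0.17 (SE), with a 95% confidence interval from -0.44 to 0.32 (limma adjusted p = 0.92). Its spread within groups was small, since the residual SD of its log2 values stood at percentile 9.17 among all tested genes. The sign of the difference changed without control replicate 2, where the log2 fold change was 0.021.

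H2-D1 (ENSMUSG00000073411, plus strand, 35262730 to 35267499) was at 11813, 10819 and 12290 in cKO uteri, against 7361, 12128 and 7359 in control uteri. The cKO animals lay close together, while control replicates 1 and 3 were low and control replicate 2 was as high as the cKO animals, so that the groups overlap. The means were 11641 ± 750 in cKO and 8949 ± 2753 in control uteri (SD, n = 3 each), with a log2 fold change of 0.42 ± 0.23 (SE; limma adjusted p = 0.467). Leaving out 1 library at a time, the log2 fold change of H2-D1 ran from 0.30, without control replicate 1 or 3, to 0.66, without control replicate 2 (limma adjusted p 0.126). Per kilobase of the deposited gene length, the level of H2-D1 was 1.95, 1.5 and 1.94 times that of H2-K1 in cKO replicates 1 to 3, against 1.1, 1.6 and 1.2 times in control replicates 1 to 3. This ratio was therefore highest in cKO replicates 1 and 3, and cKO replicate 2 lay below control replicate 2. H2-D1 and H2-K1 share up to 251 bases at 95.2% identity, so reads from that stretch are uncertain. Since neither haplotype nor alleles are known for these animals, the part of haplotype in the difference between the controls was not tested.

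Summed, the classical genes took 0.116% of reads in each of the 3 cKO libraries, against 0.0795, 0.136 and 0.0973% in control replicates 1 to 3. Beta-2-microglobulin, encoded by B2m outside the complex on chromosome 2, was at 7870, 6970 and 8566 in cKO uteri and 9270, 9103 and 5546 in control uteri. Its log2 fold change was 0.0020 ± 0.23 (SE; limma adjusted p = 0.999), and its sign turned with TMM scaling (-0.0034) and scaling by library total (-0.030). The groups overlap for B2m, as for the heavy chains. In control replicate 3 B2m was low, in control replicate 1 it was the highest of the 6 libraries, and H2-D1 was low in both.

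Of the 20 non-classical class I genes 13 passed the filter, and the limma log2 fold changes of these ran from -1.52 to 0.72 with a median of 0.17. H2-T23, whose product Qa-1 binds the inhibitory receptor of natural killer cells, was the most abundant of them. It was at 2459, 1648 and 1923 in cKO uteri, against 1961, 2081 and 1540 in control uteri, and the log2 fold change was 0.10 ± 0.20 (SE). H2-Q4 was at 1641, 1523 and 1278 in cKO uteri and 1311, 1138 and 1499 in control uteri. Both genes varied within a group by as much as between groups. Antisense exons of Gm11131 covered 19.1% of H2-Q4, and no source used here states whether reads were counted by strand.

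H2-T22 encodes a ligand of a subset of gamma-delta T cells. H2-T10, annotated as a polymorphic pseudogene, shares 1703 bases at 96.5% identity with H2-T22, so that reads may be split between them. H2-T22 was at 939, 880 and 856 in cKO uteri, against 921, 977 and 1171 in control uteri, with a log2 fold change of -0.19 ± 0.16 (SE). H2-T10 was at 105, 83.9 and 104 in cKO uteri and 61.0, 106 and 154 in control uteri. The 3 control animals differed more widely in H2-T10 than the 3 cKO animals, by 2.52-fold between the highest and lowest control and 1.25-fold in the cKO group. Opposite-strand exons covered 29.4% of H2-T22 and 27.1% of H2-T10.

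H2-Q6 and H2-Q7 belong to the Qa-2 group of genes, and H2-Q7 shares 983 bases at 95.1% identity with H2-Q6 and 1006 bases at 96.4% identity with H2-Q5. H2-Q6 was at 585, 666 and 432 in cKO uteri, against 434, 461 and 550 in control uteri. H2-Q7 was at 231, 242 and 239 in cKO uteri, against 212, 325 and 197 in control uteri. H2-Q5, annotated as a polymorphic pseudogene, was at 119, 119 and 74.0 in cKO uteri and 49.99, 115 and 56.0 in control uteri. H2-Q5 and H2-Q7 had their highest control value in replicate 2, the library in which H2-D1 was also high. H2-T24 was at 111, 79.0 and 102 in cKO uteri, against 42.7, 163 and 114 in control uteri, a 3.81-fold range within the controls. Control replicate 2 was again the highest and control replicate 1 the lowest. H2-M3, which presents N-formylated peptides of bacteria and mitochondria, was at 253, 243 and 193 in cKO uteri and 173, 162 and 203 in control uteri. Its log2 fold change was 0.35 ± 0.22 (SE), and cKO replicate 3 lay below control replicate 3.

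H2-Q10 (ENSMUSG00000067235, plus strand, 35470089 to 35474563) encodes a secreted class I molecule made mainly by the liver. It was at 109, 66.3 and 55.2 in cKO uteri, against 5166, 57.5 and 31.1 in control uteri. Control replicate 1 stood apart from all others. Control replicate 2 lay within the range of the cKO animals and control replicate 3 below it. The same library held 1.25% of its reads on the 6 liver markers, against at most 0.00718% in any other library, and the albumin gene Alb was at 146402 in it and at most 673 elsewhere. The log2 fold change of H2-Q10 was -1.52 ± 1.97 (SE; limma adjusted p = 0.805). It was 0.78 without control replicate 1 (limma adjusted p = 0.432), so the sign depends on that animal. The log2 fold change was -4.51 by edgeR and -4.51 by DESeq2, which work on the reads and not on log2 values, and likewise -4.51 for H2-Q10 in the authors' deposited table, which gives no p-value for it.

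Low-level non-classical genes also differed between single libraries. H2-Q1 was at 0, 0.98 and 0 in cKO uteri, against 23.2, 1.80 and 0.89 in control uteri, so that it was high in control replicate 1 alone. It shares 299 bases at 96.0% identity with H2-Q10, which had 4237 reads in that library against 19 reads of H2-Q1, so the origin of these reads is uncertain. H2-T3, which encodes the thymus leukaemia antigen of intestinal epithelium, had no read in 5 libraries and was at 19.8 in control replicate 2. That library also held the highest level of the intestinal genes Vil1 (192, at most 8.53 elsewhere) and Cdx2 (53.0, listed at 0 in the other 5). H2-M2 was at 39.96, 12.7 and 24.3 in cKO uteri, against 1.22, 131 and 9.79 in control uteri, and its highest value too came from control replicate 2. Its log2 fold change was 0.72 ± 1.36 (SE) by limma and -0.89 by edgeR. Unlike H2-T3, H2-M2 had reads in every library. The dendritic cell marker Itgax (2588) and the macrophage marker Cd68 (2321) were also highest in control replicate 2, while the leukocyte marker Coro1a (1054) was lowest there. H2-M9 was at 10.2, 34.1 and 23.2 in cKO and 6.10, 30.6 and 8.90 in control uteri, and H2-M5 ranged from 5.52 to 22.4 in cKO and from 2.70 to 26.8 in control uteri. The part of tissue carried along with the uterus, or of immune cell content, in these values was not tested.

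**Figure D3:**
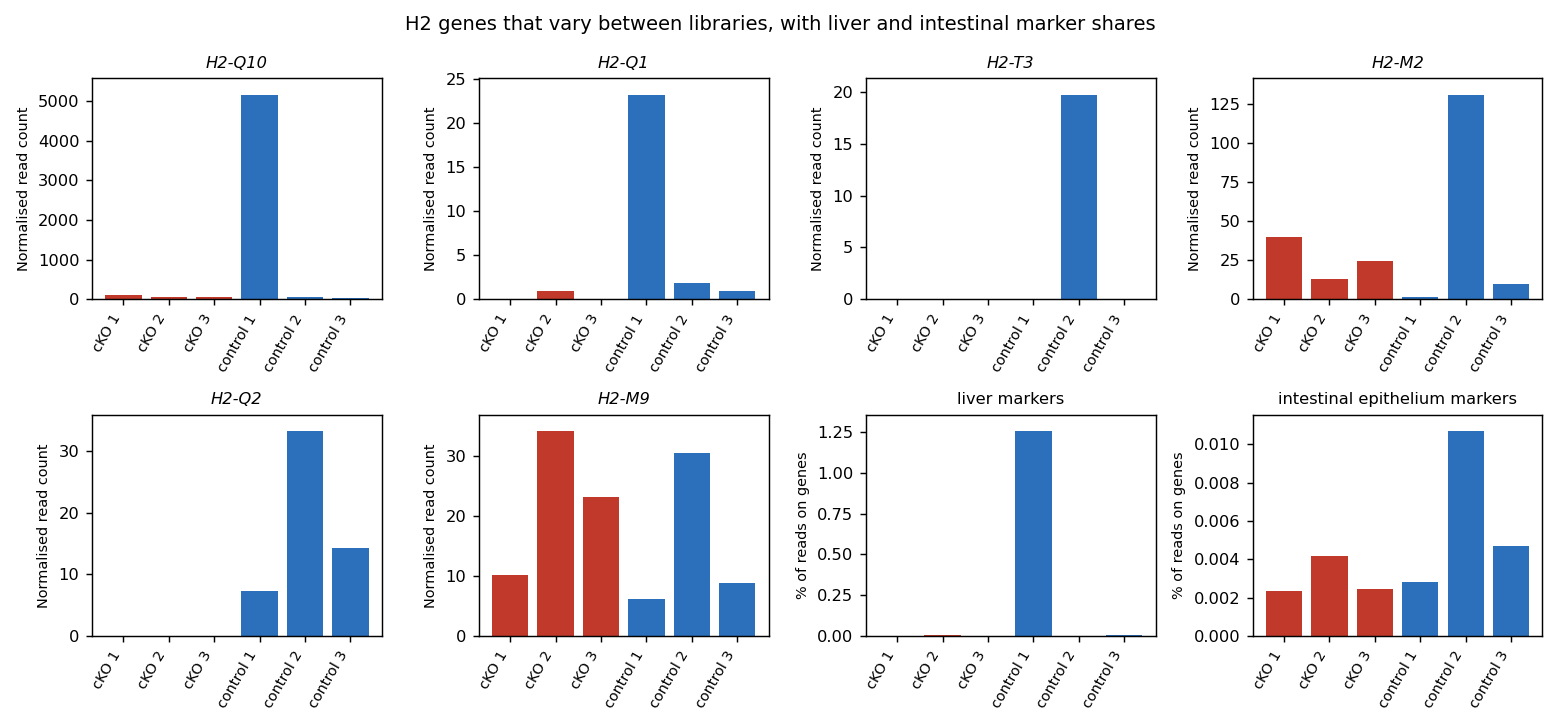
Normalised read count of 6 non-classical class I genes in each of the 6 libraries (bars, cKO red and control blue, linear axes from 0), with the percent of reads on 6 liver and 6 intestinal epithelium markers in the same libraries. H2-Q10 (5166) and H2-Q1 (23.2) peak in control replicate 1 with the liver markers, H2-T3 (19.8), H2-M2 (131) and H2-Q2 (33.3) peak in control replicate 2 with the intestinal markers, and H2-M9 is highest in cKO replicate 2 (34.1). H2-M2 also has reads in every cKO library.

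H2-Q2 (ENSMUSG00000091705, plus strand, 35342242 to 35346762) was the one member with reads in all 3 controls and none in any cKO library. It was at 0 in all 3 cKO uteri, against 7.32, 33.3 and 14.2 in control uteri, from 6, 37 and 16 reads. With each cKO library set at 3 reads, it was at least 6.07-fold lower in the cKO group (3.58-fold without control replicate 2, 7.89-fold without control replicate 1). An exact two-sided permutation test over the 6 animals gave p = 0.10, the smallest value that 3 against 3 allow. The gene was picked because its groups do not overlap, so this p was fixed in advance and adds no support. The gene did not pass the filter on low reads. Fitted without a filter, H2-Q2 had a limma adjusted p of 0.086, while in the authors' deposited table its log2 fold change was -6.64 with adjusted p = 0.00605. By the authors' deposited adjusted p, 2.37% of genes were lower and 0.883% higher. Reads in every control and none in any cKO library were found in 0.615% of all 26018 genes. Among the intestinal markers Cdh17 had the same pattern, at 0 in all 3 cKO uteri and 23.2, 91.7 and 11.6 in control uteri, and the highest value of both genes was in control replicate 2. H2-Q2 shares 923 bases at 96.2% identity with H2-Q1, so the split of reads between them is uncertain. The part of other tissue or of haplotype in the difference was not tested.

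The remaining non-classical genes were close to absent. H2-Bl, annotated as a polymorphic pseudogene, was at 5.85 in cKO replicate 2 and 1.80 in control replicate 2 and had no read elsewhere. H2-M11 had 2 reads in cKO replicate 2 alone, H2-M1 3 reads and H2-M10.4 2 reads, both in control replicate 2 alone. The last 3 genes had no more than 3 reads in any library, which a library with no read could also hold. H2-Bl, with 6 reads in cKO replicate 2, exceeded that.

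The genes for the class II antigen-presenting chains had the largest summed share of reads beside the classical class I genes. H2-Aa (ENSMUSG00000036594, minus strand, 34282744 to 34287827), the alpha chain of H2-A, was at 6464, 5338 and 4195 in cKO uteri, against 4564, 3625 and 3872 in control uteri. H2-Ab1 (ENSMUSG00000073421, plus strand, 34263209 to 34269418), its beta partner, was at 5142, 5082 and 3441 in cKO uteri, against 3213, 3570 and 3624 in control uteri. H2-Eb1 (ENSMUSG00000060586, plus strand, 34305877 to 34316199), the beta chain of H2-E, was at 6824, 4906 and 3700 in cKO uteri, against 5118, 3418 and 3127 in control uteri. In each of these genes cKO replicate 1 was the highest library, and cKO replicate 3 lay inside the range of the controls. The log2 fold changes were 0.39 ± 0.20 for H2-Aa, 0.37 ± 0.19 for H2-Ab1 and 0.39 ± 0.27 for H2-Eb1 (SE, 3 animals a group). Adjusted p by limma was 0.434, 0.452 and 0.574 in the same order. Their 95% confidence intervals were -0.057 to 0.84, -0.068 to 0.81 and -0.20 to 0.99, and all include 0. These values depended on single animals in both directions. Without cKO replicate 1 the log2 fold change was 0.24 for H2-Aa, 0.27 for H2-Ab1 and 0.17 for H2-Eb1. Without cKO replicate 3 it was 0.55 for H2-Aa, 0.56 for H2-Ab1 and 0.61 for H2-Eb1, and without control replicate 1 it was 0.61 for H2-Eb1. The locus H2-Ea, the alpha chain partner of H2-Eb1, is known not to be transcribed in haplotype b and was not analysed here.

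The level of H2-Eb1 per kilobase was 1.83, 1.33 and 1.49 times that of H2-Ab1 in cKO replicates 1 to 3, against 2.20, 1.32 and 1.19 times in control replicates 1 to 3. The ratio of H2-Aa to H2-Ab1 per kilobase ranged from 0.917 to 1.10 in cKO and from 0.887 to 1.24 in control uteri. Control replicate 1 had the highest of both ratios, and the groups overlap for both.

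DM molecules, which exchange peptides on class II in endosomes, were less abundant. H2-DMb1 was at 587, 522 and 361 in cKO uteri, against 413, 413 and 339 in control uteri, with a log2 fold change of 0.31 ± 0.22 (SE; limma adjusted p = 0.59). H2-DMa was at 570, 452 and 382 in cKO uteri, against 461, 359 and 329 in control uteri, with a log2 fold change of 0.28 ± 0.21 (limma adjusted p = 0.617). Leaving out 1 library at a time, these values ran from 0.17 to 0.52 for H2-DMb1 and from 0.13 to 0.43 for H2-DMa, lowest in both without cKO replicate 1. Both followed the order of the antigen-presenting chains, with cKO replicate 1 highest and cKO replicate 3 within the control range. H2-DMb2 shares 1081 bases at 95.7% identity with H2-DMb1 and was at 40.9, 33.2 and 5.52 in cKO uteri, against 25.6, 21.6 and 30.2 in control uteri. The genes of DO, a modulator of DM made mainly in B cells, were low. H2-Ob was at 53.9, 68.3 and 43.1 in cKO and 57.3, 37.7 and 50.7 in control uteri, and H2-Oa, which did not pass the filter, stayed between 2.21 and 9.75 in both groups, with antisense exons over 22.8% of it.

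Markers of macrophages, which carry class II, were measured in the same libraries. The 8 macrophage markers took 0.161, 0.144 and 0.117% of reads in cKO replicates 1 to 3, against 0.0796, 0.104 and 0.0867% in control replicates 1 to 3. The 3 class II chains took 0.12, 0.0982 and 0.0703% in the same cKO libraries and 0.0725, 0.0727 and 0.0761% in the control libraries. The macrophage share over all 8 markers did not overlap between the groups, while the class II share of cKO replicate 3 was the lowest of all 6. That rank depended on the scaling. In summed normalised read counts the class II chains of cKO replicate 3 were at 11336.5, against 12895, 10613 and 10622 in control replicates 1 to 3. In both shares cKO replicate 1 was the highest and cKO replicate 3 the lowest of its group. None of these 8 markers was called by limma. An unadjusted p under 0.05 was found for 5 of them, where 13.7% of all tested genes had one, and a log2 fold change above 0 for 7. C1qc, a chain of the complement component C1q, was at 3327, 3747 and 2913 in cKO uteri, against 2011, 2099 and 1949 in control uteri (limma adjusted p = 0.0754). The 3 C1q chains took 0.101, 0.0984 and 0.0715% of cKO reads, against 0.0501, 0.055 and 0.0566% of control reads, and so made up most of the macrophage share. The other 5 markers took 0.0604, 0.0458 and 0.0458% of cKO reads, against 0.0295, 0.0486 and 0.0302% of control reads, and these shares overlapped. Their summed normalised read counts did not overlap, at 9304, 7152 and 7385 in cKO and 5248, 7095 and 4210 in control uteri. Among these 5 markers, Csf1r was at 3809, 3099 and 2860 in cKO uteri, against 2459, 2624 and 1747 in control uteri. Mrc1 was at 2789, 2562 and 1801 in cKO uteri, against 1607, 1277 and 1555 in control uteri. In both genes all cKO values lay above all control values, as for 9.04% of all tested genes (limma adjusted p 0.29 and 0.176). Fcgr1, Adgre1 and Cd68 overlapped. Adgre1, which encodes the macrophage antigen F4/80, was at 404, 249 and 239 in cKO uteri and 273, 605 and 222 in control uteri, with a log2 fold change of -0.20. The lysosomal gene Cd68 was at 1818, 818 and 2204 in cKO uteri and 562, 2321 and 351 in control uteri, highest in control replicate 2. Of the 8 none was at 0 in any library.

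Among 3 general leukocyte markers Coro1a rose, with 1937, 2261 and 1882 in cKO uteri, against 1086, 1054 and 1211 in control uteri, with a log2 fold change of 0.86 ± 0.15 (SE; limma adjusted p = 0.0365). Its call was lost with edgeR (adjusted p = 0.058), limma-voom (0.0509), the replicate block (0.0702) and scaling by library total (0.106). It was also lost without control replicate 2 (0.0668) or cKO replicates 1, 2 or 3 (0.123, 0.2 and 0.172). Ptprc, the pan-leukocyte gene for CD45, was at 1075, 715 and 846 in cKO uteri and 490, 1140 and 453 in control uteri, with overlap between the groups. Laptm5 overlapped too, at 1657, 2643 and 2218 in cKO uteri and 825, 3149 and 2380 in control uteri (limma adjusted p = 0.893). Dendritic cell markers took 0.00782 to 0.0103% of cKO reads and 0.00341 to 0.02% of control reads. Itgax was the largest part of this share in every library, at 1200, 701 and 1249 in cKO and 212, 2588 and 260 in control uteri. Flt3 stayed between 19.5 and 31.2 in both groups. Cd209a was at 57.6, 46.8 and 53.0 in cKO uteri, against 32.9, 15.3 and 27.6 in control uteri (limma adjusted p = 0.332). All its cKO values lay above all control values, as for 9.04% of all tested genes. Of the 6 dendritic cell markers 5 had a log2 fold change above 0 and 1 below, and limma called none. B cell markers took at most 0.000495% of cKO and 0.000726% of control reads, and T cell markers at most 0.00145% of cKO and 0.00126% of control reads. The natural killer gene Ncr1 had no read in cKO replicates 1 and 2 and control replicate 3, and the B cell gene Ms4a1 none in cKO replicate 2 and control replicate 3. The part of immune cell content in the class II values was not tested.

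**Figure D4:**
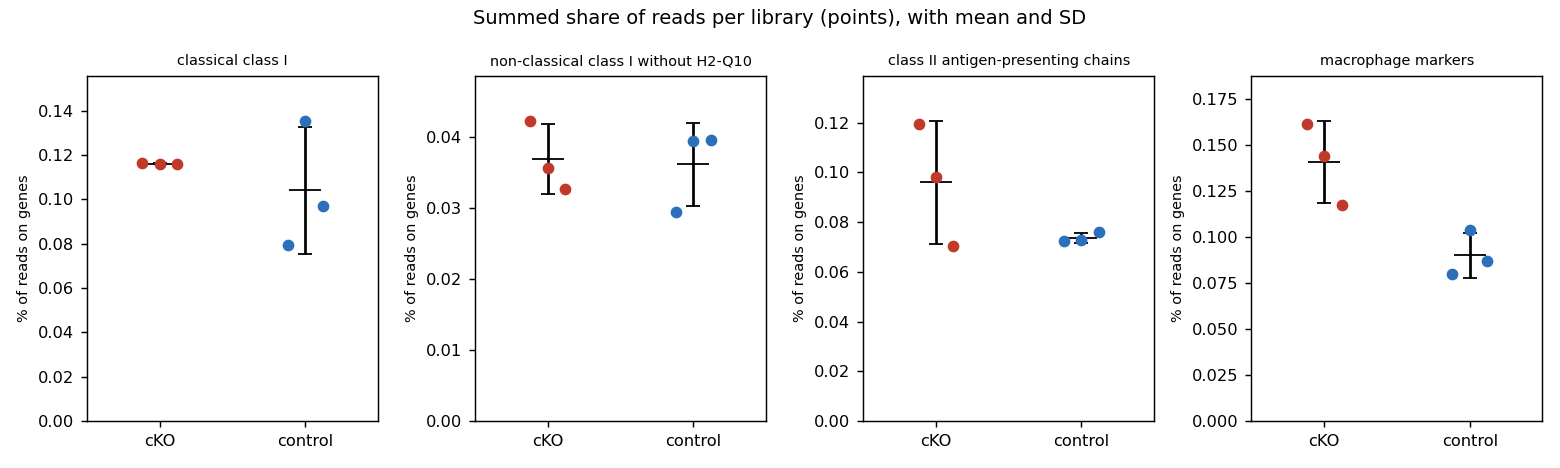
Percent of reads on genes taken by the classical class I genes, the non-classical class I genes without H2-Q10, the 3 class II chains and 8 macrophage markers in each library (points), with group mean and SD (n = 3). The classical share is 0.116% in every cKO library and 0.0795 to 0.136% in controls, the class II share is 0.0703 to 0.12% in cKO and 0.0725 to 0.0761% in controls, and the macrophage share alone does not overlap.

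Genes that serve both classes of MHC molecule were examined as lists. Limma called none of the 15 genes of class I peptide loading and the immunoproteasome, none of which had an unadjusted p under 0.05. Their median log2 fold change was 0.075, against 0.0020 over all tested genes, and 11 of 15 were above 0. The immunoproteasome gene Psmb9 was at 507, 579 and 303 in cKO uteri, against 365, 298 and 306 in control uteri, and Nlrc5, the transactivator of class I genes, at 304, 412 and 306 in cKO uteri, against 317, 245 and 204 in control uteri. The smallest unadjusted p values of the list also included Erap1, which trims peptides in the endoplasmic reticulum, with a log2 fold change of -0.34 ± 0.23 (SE), and Psmb8 with 0.20 ± 0.17. Antisense exons covered 11.5% of Erap1 and 14.7% of Psmb8.

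Of 13 genes that work with class II, limma called none and 1 had an unadjusted p under 0.05 (13.7% of all tested genes). The median log2 fold change was 0.35, and 12 of 13 were above 0. Cd74, the invariant chain that guides class II to endosomes, was at 10035, 11924 and 7653 in cKO uteri, against 8499, 7617 and 6701 in control uteri, a log2 fold change of 0.36 ± 0.21 (SE; limma adjusted p = 0.501). Ciita, the transactivator of class II genes, was at 242, 186 and 171 in cKO uteri and 106, 118 and 198 in control uteri, where control replicate 3 overlaps the cKO animals. The lysosomal thiol reductase gene Ifi30 was at 1041, 1143 and 1242 in cKO uteri, above the control values of 789, 990 and 647 in all 3 animals (log2 fold change 0.52 ± 0.19, limma adjusted p = 0.265). The endosomal protease gene Lgmn and the costimulatory gene Cd80 had log2 fold changes of 0.39 ± 0.22 and 0.42 ± 0.22.

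Interferons induce MHC genes, and 36 genes of the interferon response were tested. Limma called none of them, 4 had an unadjusted p under 0.05 (13.7% of all tested genes), and 15 were above and 21 below 0, with a median log2 fold change of -0.10. The signs differed among these 4. The interferon receptor gene Ifnar1 was at 1222, 1029 and 1000 in cKO uteri, against 860, 785 and 586 in control uteri, and the transcription factor gene Irf8 at 682, 646 and 613 in cKO uteri, against 444, 505 and 528 in control uteri. The interferon-induced gene Ifit1 was at 365, 341 and 181 in cKO uteri and 360, 457 and 572 in control uteri, and Usp18, a brake on interferon signalling, at 181, 81.9 and 74.0 in cKO uteri, against 155, 232 and 194 in control uteri. The limma adjusted p values of these genes were 0.226, 0.314, 0.353 and 0.336. For the 3 lists edgeR, DESeq2 and limma-voom called no gene either.

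Within-group spread differed between the classes. The median residual SD of log2 values was 0.22 for the 2 classical genes, 0.25 for the 3 class II chains and 0.49 for the 13 tested non-classical genes, against 0.33 over all tested genes. Of the 25 tested members 4 lay above percentile 90 of all tested genes, namely H2-Q10 at 99.5, H2-M2 at 98.8, H2-M5 at 93.8 and H2-DMb2 at 90.9. These are also genes with few reads in most libraries. The pseudogenes were H2-K2, at 322, 344 and 254 in cKO and 213, 246 and 326 in control uteri, H2-T-ps, at 20.5 to 25.1 in cKO and 12.5 to 21.6 in control uteri, and H2-M6-ps and H2-Pb, which did not pass the filter. H2-M6-ps was at 3.31 in cKO replicate 3 and at 10.97 and 0.90 in control replicates 1 and 2, and H2-Pb had 2 reads in control replicate 3 alone. H2-T-ps shares 1068 bases at 95.6% identity with H2-T23, so its reads may be those of H2-T23. H2-Ke6 was at 22.3, 32.2 and 24.3 in cKO uteri, against 28.0, 6.29 and 16.9 in control uteri, and exons of Gm20427 on the same strand covered 86.4% of it.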

How the data were processed

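Each uterus gave 1 RNA-seq library. The submitters' processing notes list featureCounts, HISAT2 and SAMtools, give none of their versions, and name GRCm39 as build. How strand and multiply mapping reads were treated is not stated there. Gene coordinates in the deposited table equalled GENCODE vM21 (GRCm38) for 25205 of 25988 shared genes and for 26 of 35 H2 genes, so they are read as GRCm38.

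The deposited signal values hold gene counts after division by a size factor for each library, an inference from the values: 100% were whole multiples of 1 step in every column (tolerance 0.01 reads), and the factors equal median-of-ratios factors. Reads were recovered from them. The deposited log2 fold changes and p-values are the authors' own, from a tool that no source names. In 24 rows a symbol had become a date and was restored by identifier.

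The groups were compared by limma 3.58.1 (R 4.3.3), using log2(value + 1), eBayes with trend and robust options and Benjamini-Hochberg adjustment, over the 16314 genes that passed edgeR 4.0.16 filterByExpr. The added 1 understates fold changes of low genes. edgeR's quasi-likelihood test, DESeq2 1.42.0 and limma-voom on the recovered reads were alternatives. Members, lists and tests were chosen with earlier results of these data known. Named genes are the H2 genes, up to 4 genes of smallest p in each list, and B2m, Cd74, Ciita, Nlrc5 and Ptprc. Coro1a, C1qc and the other markers were named after their values were seen. Near-identical transcripts (at least 95% identity over at least 100 bases) were found with blastn 2.17.0 in GENCODE vM21. The fits were tested on simulated data. Replicates are separate animals. Floors of 3 reads cover counting error only, as reads without molecular identifiers are not independent molecules.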

Additional observations from a re-analysis of the deposited data

How the results depend on the processing

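No H2 gene was called under any setting that kept more than 1 animal in each group and in which it was fitted (DESeq2 gave no adjusted p for H2-Q10 and H2-M5). The 10 H2 genes that did not pass the filter, H2-Q2 among them, were fitted only by limma with no filter. In the authors' deposited table H2-Q2 had an adjusted p of 0.00605. The setting without control replicates 1 and 2 together was chosen after seeing the data. It leaves 1 control animal, so only its effect sizes are given. Under the other settings the smallest adjusted p was 0.086 (limma with no filter, H2-Q2). Of 424 values of H2 genes under the alternatives 398 kept their sign and 26 turned it. With both of those controls left out, log2 fold changes turned their sign to 0.083 for H2-K1, -0.025 for H2-Q4, 0.27 for H2-Q7, -0.24 for H2-T24, 1.22 for H2-Q10, -0.097 for H2-K2 and 0.041 for Erap1. That of H2-D1 kept its sign and was 0.66, against 0.42 with all libraries. H2-T24 was at -0.14 with edgeR, -0.14 with DESeq2 and -0.041 with limma-voom, and H2-M2 at -0.89 with edgeR and -0.89 with DESeq2. H2-DMb2 was at 0.038 with edgeR and 0.045 with DESeq2. B2m was at -0.0034 with TMM scaling, -0.030 with scaling by library total, -0.035 with edgeR, -0.030 with DESeq2 and -0.0063 with limma-voom. Leaving out 1 library at a time, log2 fold changes ran from -0.13 to 0.021 for H2-K1, -0.052 to 0.24 for H2-T23, -0.15 to 0.22 for H2-Q7, -0.39 to 0.27 for H2-T10, -0.50 to 0.46 for H2-T24, -2.88 to 0.78 for H2-Q10, -0.64 to 2.31 for H2-M2, -0.83 to 0.51 for H2-DMb2 and -0.24 to 0.13 for B2m. The cause of these turns was not tested.

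Over all genes, 145 lower and 45 higher genes became 578 and 280 with DESeq2, 82 and 19 with limma-voom, and 435 and 385 without both controls. The higher genes numbered 12 with scaling by library total, 82 with no filter and 13 with edgeR. Leaving out 1 library at a time, lower genes ranged from 46 to 277 and higher genes from 1 to 92. For the gene lists, leaving out 1 library at a time gave 0 to 1 called class II partners (Ctss, without control replicate 2). It gave 0 to 1 called interferon genes (Rsad2, without control replicate 1).

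Replicate numbers showed no sign of pairing the animals: same-numbered deviations correlated at 0.0084, -0.18 and 0.044, and differently numbered ones at -0.12 to 0.099. With 3 animals a group this cannot exclude a pairing by litter or batch. With the replicate block, 149 genes were lower and 34 higher, no H2 gene was called, and the smallest adjusted p of an H2 gene was 0.393 (H2-Eb1). With 3 animals per group, intervals stay wide for genes with few reads, and genes at 0 to 3 reads could not be compared.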

Other observations

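Genes without an H2 name also lie between the outermost members on chromosome 17 (33974831 to 37483552, GRCm38). Of 152 listed there 97 were tested, and limma called 1 lower and 0 higher, or 1.03%, against 1.16% of all genes. The called gene was Ddr1, a collagen receptor, at 387, 429 and 428 in cKO uteri, against 772, 716 and 682 in control uteri. Its log2 fold change was -0.80 ± 0.16 (SE; limma adjusted p = 0.0491), and the call was lost with edgeR (0.0577), limma-voom (0.0619), the replicate block (0.0954), scaling by library total (0.0763), a pseudocount of 0.5 (0.0506) and no filter on low reads (0.0559), and without any 1 of the 6 libraries (0.0544 to 0.224).

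The cytokine genes Tnf and Ltb and the leukocyte gene Lst1 lie next to each other in this interval, and none was called. Tnf was at 109.6, 80.9 and 76.2 in cKO uteri, against 43.9, 48.5 and 17.8 in control uteri. Lst1 was at 264, 228 and 235 in cKO uteri, against 199, 95.3 and 66.7 in control uteri, and Ltb at 99.4, 88.7 and 90.6 in cKO uteri, against 48.8, 53.0 and 52.5 in control uteri. All cKO values lay above all control values in these genes, as for 9.04% of all tested genes. The limma adjusted p values were 0.229, 0.21 and 0.272, and these genes, like Ddr1, were chosen after their values were seen.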
